A study of Mus musculus with 6 samples.

Results

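Chemokines and their receptors were examined in hepatocytes of fibrotic mouse livers with or without FOXA2, a forkhead transcription factor of liver cells. The members were all genes whose symbol is Ccl, Cxcl, Ccr or Cxcr followed by a number and an optional letter, together with Xcl1 and Xcr1, and they came to 54 of the 34745 genes in the data. They comprised 37 ligands and 17 receptors. The control group, FOXA2f/f+CCl4, held hepatocytes of male FOXA2flox/flox mice aged 12 weeks that had received AAV8-TBG-Control through the tail vein. The other group, FOXA2H-KO+CCl4, came from mice of the same genotype, sex and age that had received AAV8-TBG-Cre, in which the hepatocyte-specific TBG promoter drives the Cre recombinase. In both groups the virus was given 2 weeks before carbon tetrachloride (CCl4), a toxin activated in hepatocytes that produces fibrosis. The toxin was dosed at 0.25 ml/kg over 4 weeks, with 2 injections weekly, and the livers were taken on the third day after the last dose, so that no group without CCl4 was compared here. Each group had 3 libraries, numbered 1, 2 and 4 by the labels, which do not say whether each came from a separate mouse; p-values measure the spread between these libraries.

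Chemokines are small secreted proteins that direct the movement of leukocytes, and they are named CC, CXC or C by the spacing of their conserved cysteines. They act on G protein-coupled receptors of the Ccr, Cxcr and Xcr families, which are carried mainly by leukocytes. In injured liver, hepatocytes, macrophages, stellate cells and sinusoidal endothelium release ligands that draw neutrophils, monocytes and lymphocytes, and many ligand genes are induced through NF-kappaB or interferon signalling. The ligands were therefore kept apart by their usual main source. The 6 ligands listed as hepatocyte-made were Ccl2, Cxcl1, Cxcl9, Cxcl10, Cxcl11 and Cxcl12. Another 15 ligands were listed as immune-made, and 16 as stromal or epithelial. These classes were assigned from general knowledge, and the cell source was not measured in these libraries.

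Total counts were between 20983455 and 28327765 per library. Foxa2 itself was at 19.0, 13.5 and 16.4 CPM (counts scaled to the size of the library by the TMM method) in FOXA2f/f and at 1.03, 0.762 and 1.62 CPM in FOXA2H-KO libraries 1, 2 and 4, a log2 fold change of -3.85 ± 0.31 (SE), with an adjusted p of 0.0313 by edgeR's quasi-likelihood test. It still passed the threshold without FOXA2f/f library 2, and not when any other library was left out, where the log2 fold change was between -4.17 and -3.63. The hepatocytes were separated by collagenase perfusion and low-speed centrifugation, without a sort. Hepatocyte markers summed to between 115597 and 162771 CPM over 10 genes, and all 14 macrophage markers were also above the expression filter. The summed macrophage markers were at 1417, 676 and 3093 CPM in FOXA2f/f libraries 1, 2 and 4, and at 2388, 2143 and 1502 CPM in the FOXA2H-KO libraries. FOXA2f/f library 2 had the lowest sum and FOXA2f/f library 4 the highest sum of the markers of macrophages, endothelial cells and stellate cells. In such bulk RNA, fewer cells of a type and less RNA per cell cannot be told apart.

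Of the 54 members, 30 had enough counts to be tested, and none was called at an adjusted p under 0.05 and a change of at least 2-fold, the smallest adjusted p of a member being 0.689 (edgeR quasi-likelihood test). Over all 14417 genes tested, 1 gene was called (0.00694%). The fitted change was positive for 21 of the tested members and negative for 9, with a median log2 fold change of 0.26 beside -0.012 over all genes tested. Without adjustment, Ccr2, Ccl24 and Cxcl2 were higher in FOXA2H-KO at p under 0.05, where 1.98% of all genes tested were, and Cxcl1 was lower, where 3.18% were. The 3 FOXA2H-KO libraries lay above all 3 FOXA2f/f libraries for Ccr2 and Cxcl2, as for 4.54% of all genes, and below them for 0 members, as for 5.96%. DESeq2 also called 0 members, but the share of all genes that it called is not given here to set beside this. These counts depended on the libraries included. Without FOXA2f/f library 4, 10 of the 30 members tested were higher at an unadjusted p under 0.05, as were 8.87% of all genes tested in that setting, and 16 were higher without overlap, as were 18.1% of all genes. Leaving out FOXA2f/f library 1 or 2, or FOXA2H-KO library 1 or 2, left 1 such member that was higher at that p. Between 1.66% and 2.37% of all genes tested were higher there. Without FOXA2f/f library 2 the number that were lower was 4 of 31 members tested, as were 3.22% of all genes tested. Members lower without overlap came to 2 without FOXA2f/f library 1, to 3 without FOXA2f/f library 2 or FOXA2H-KO library 1, and to 2 without FOXA2H-KO library 4. In this last setting 2 members were lower at an unadjusted p under 0.05, as were 1.63% of all genes tested. In the same setting 4 were higher without overlap, as were 6.97% of all genes. With a library other than FOXA2f/f 4 left out, between 6.97% and 9.98% of all genes tested were higher without overlap and between 8.66% and 10.3% lower, so that such counts run above those of 3 against 3 for all genes too.

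**Figure D1:**
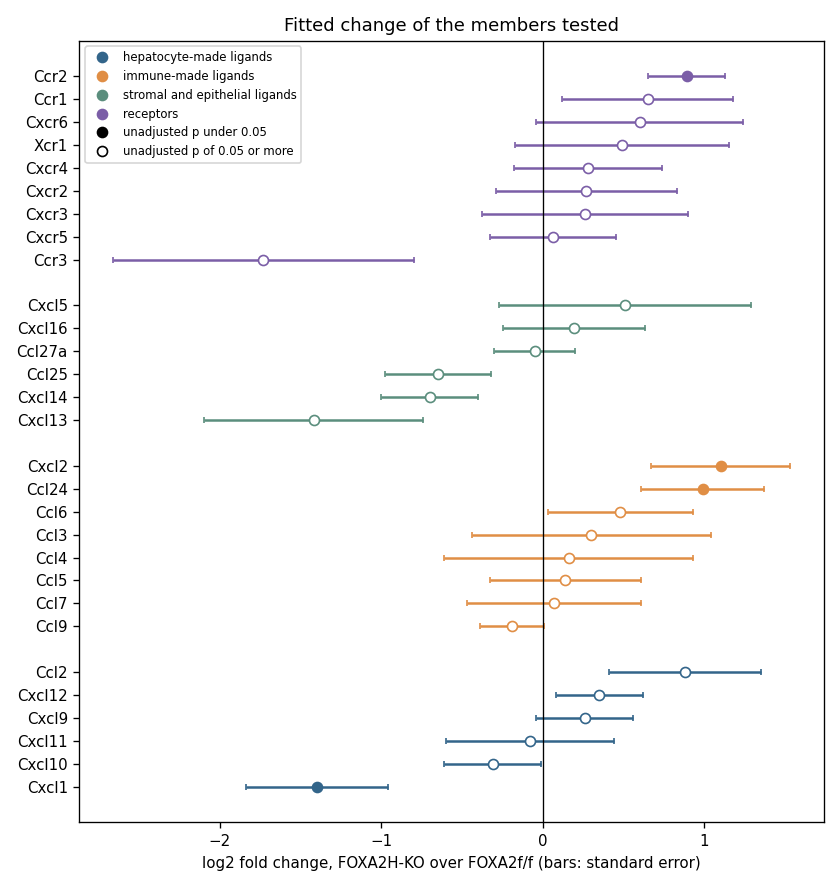
Fitted log2 fold change of the members tested, FOXA2H-KO over FOXA2f/f, with the standard error as a horizontal bar, in 4 groups by class. Filled points have an unadjusted p under 0.05: Ccr2, Cxcl2 and Ccl24 lie to the right of 0 and Cxcl1 to the left, and every receptor plotted except Ccr3 lies to the right.

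The reads of the members were concentrated in few ligands. Cxcl12, Ccl9 and Cxcl1 together took between 69.9% and 80.5% of the members' counts in each library, and all members together were between 0.0316% of the library, in FOXA2f/f library 2, and 0.0791%, in FOXA2f/f library 4. Of the 54 members, 8 had a mean of at least 10 CPM over the 6 libraries and 21 a mean of at least 1 CPM. Per gene length, on the deposited FPKM scale, the mean level over the 6 libraries was highest for Ccl9 at 33.0, followed by Cxcl12 at 21.1, Cxcl1 at 18.2 and Ccl6 at 14.9 FPKM. Cxcl13 and Cxcl14 came next, at 7.54 and 5.87 FPKM. Cxcl12 and Cxcl1 did not differ beyond their spread in the FOXA2f/f libraries, where they were at 18.0 ± 9.66 and 25.8 ± 15.2 FPKM (SD, n = 3). In the FOXA2H-KO libraries they were at 24.2 ± 2.57 and 10.6 ± 2.06 FPKM.

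**Figure D2:**
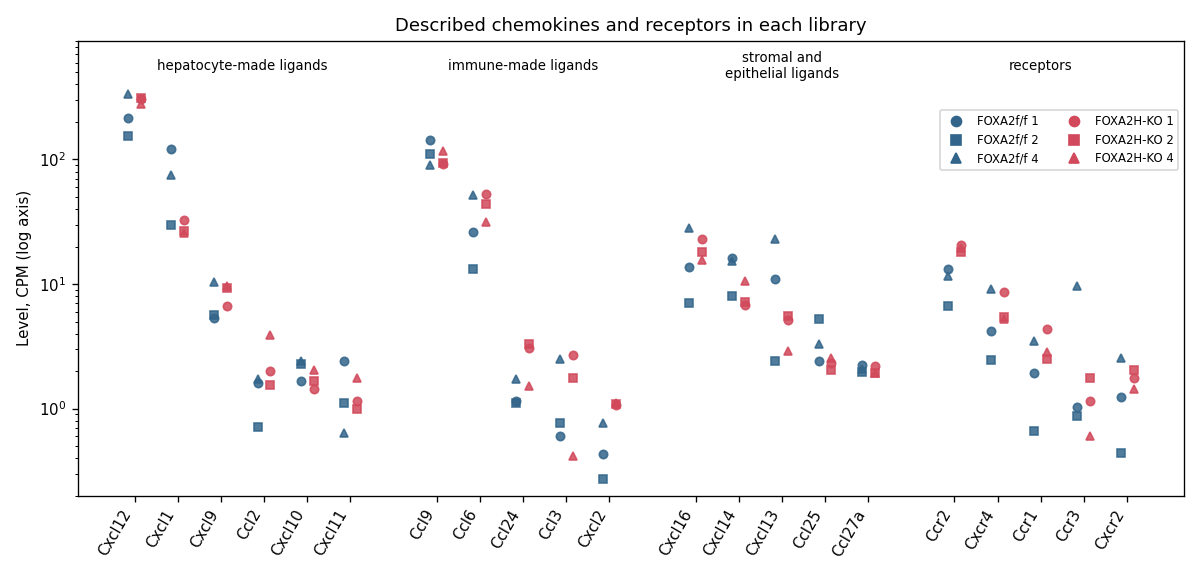
Level of the members described one by one, in CPM on a log axis, in each of the 6 libraries (blue FOXA2f/f, red FOXA2H-KO, marker shape for the library number). The 3 FOXA2H-KO libraries lie above the 3 FOXA2f/f libraries for Ccr2 and Cxcl2, and the groups overlap for the other members shown.

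Among the ligands listed as hepatocyte-made, 3 were fitted as higher and 3 as lower in FOXA2H-KO, with a median log2 fold change of 0.09. With 1 library left out this median was between -0.09, without FOXA2H-KO library 4, and 0.21, without FOXA2f/f library 4. On the scale of log2(FPKM + 1) it was 0.37, but there Cxcl10 and Cxcl11, both fitted as lower in the reported fit, were too low to be included. Cxcl12, the ligand of Cxcr4 that holds blood cell precursors in the marrow and is also made in liver, had the most counts of all members. It was at 214, 153 and 337 CPM in FOXA2f/f libraries 1, 2 and 4, and at 306, 313 and 280.1 CPM in the FOXA2H-KO libraries. The highest value and both of the lowest were FOXA2f/f libraries, so that the groups overlapped. The log2 fold change of 0.35 ± 0.27 (SE) had an adjusted p of 0.983 by edgeR's quasi-likelihood test. Like the summed markers of macrophages, endothelial cells and stellate cells, Cxcl12 was lowest in FOXA2f/f library 2 and highest in FOXA2f/f library 4. Hepatocyte markers summed highest in FOXA2f/f library 2, at 162771 CPM. The cell source of the Cxcl12 reads was not tested.

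Cxcl1, which attracts neutrophils through Cxcr2, had the lowest fitted change of the hepatocyte-made ligands. It was at 121, 29.6 and 74.8 CPM in FOXA2f/f libraries 1, 2 and 4, and at 32.5, 26.8 and 25.9 CPM in the FOXA2H-KO libraries. FOXA2f/f libraries 1 and 4 were above all others, while FOXA2f/f library 2 lay within the range of FOXA2H-KO. The means were 75.1 ± 45.7 and 28.4 ± 3.55 CPM (SD, n = 3), a log2 fold change of -1.40 ± 0.44 (SE) with an unadjusted p of 0.013 and an adjusted p of 0.791 in edgeR's quasi-likelihood test, and the exact two-sided permutation test of the 6 values gave p = 0.2 where 0.1 is the smallest that 3 against 3 allow. With 1 library left out, the log2 fold change of Cxcl1 was between -1.78, without FOXA2f/f library 2, and -0.87, without FOXA2f/f library 1. The adjusted p of Cxcl1 depended on the setting. It was 0.0992 with DESeq2 and 0.17 with edgeR's exact test. Its lowest value was 0.0566, by the quasi-likelihood test without FOXA2f/f library 2, so no setting brought it under 0.05. Its share of the members' counts was 20.0%, 8.12% and 10.5% in FOXA2f/f and between 4.52% and 5.27% in FOXA2H-KO.

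In their sum, neutrophil markers were highest in the libraries where Cxcl1 was highest, but single markers differed. This sum over 12 genes was 139, 12.6 and 88.5 CPM in FOXA2f/f libraries 1, 2 and 4, and between 23.0 and 35.4 CPM in FOXA2H-KO. FOXA2f/f libraries 1 and 4 were thus highest, while FOXA2f/f library 2 was below every FOXA2H-KO library. Of the 11 markers tested, 9 were fitted as lower in FOXA2H-KO and 7 of these had an unadjusted p under 0.05 with edgeR: S100a8, S100a9, Elane, Mpo, Camp, Ltf and Ngp, genes of neutrophil granules and cytosol. None of them had an adjusted p under 0.65. Over all genes tested, 3.18% were lower at an unadjusted p under 0.05 by edgeR. Ngp alone was lower in FOXA2H-KO without overlap, as were 5.96% of all genes tested. Ly6g, which marks mature neutrophils, was at 0.43 CPM at most and at 0 in FOXA2f/f library 2 and FOXA2H-KO library 2. Csf3r, the receptor for granulocyte colony-stimulating factor, had a log2 fold change of 0.29 ± 0.51 (SE). Mmp8, Mmp9 and Retnlg had log2 fold changes of 0.13 ± 0.50, -0.24 ± 0.60 and -0.39 ± 0.60 (SE). Csf3r and Retnlg were highest in FOXA2f/f library 4, at 21.3 and 3.46 CPM, not in FOXA2f/f library 1, at 9.32 and 1.55 CPM. The part of neutrophils in the difference of Cxcl1 was not tested.

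Cxcl2, which binds the same receptor as Cxcl1 and is listed with the immune-made ligands, went the other way at a level near the limit of description. It was at 0.43, 0.274 and 0.763 CPM in FOXA2f/f libraries 1, 2 and 4, from 10, 5 and 24 counts, and at 1.07, 1.08 and 1.11 CPM in FOXA2H-KO, from 29, 27 and 24 counts. All 3 FOXA2H-KO libraries were above all 3 FOXA2f/f libraries, with a log2 fold change of 1.10 ± 0.43 (SE), an unadjusted p of 0.0363 and an adjusted p of 0.918 with edgeR. The exact permutation p was 0.1, the smallest possible. Of the windows of 50 bases in its transcripts, 5.84% also occur in transcripts of Cxcl3, so that a small part of the reads could belong to either gene. Cxcl3 had between 0 and 3 counts in each library. The ratio of Cxcl1 to Cxcl2 was 281, 108 and 98 in FOXA2f/f and 30.4, 24.7 and 23.4 in FOXA2H-KO. The ratio was chosen after the values were seen and was not tested; it was below every FOXA2f/f value in each FOXA2H-KO library.

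Cxcl1 and Cxcl2 lie beside each other on the plus strand of mouse chromosome 5 (GRCm38), Cxcl1 from 90891241 to 90893115 and Cxcl2 from 90903871 to 90905938. Their promoters are shown because the genes are neighbours, share a receptor and had changes of opposite sign, and that of Cxcl10, an interferon-induced ligand on the minus strand of the same chromosome, is shown beside them. Each run holds the 250 bases before the RefSeq transcription start (GRCm38.p6), 5′ to 3′ on the strand of the gene, with matches to the NF-kappaB consensus (kappaB, both strands) in capitals.
Cxcl1, chr5:90890995-90891244, plus strand: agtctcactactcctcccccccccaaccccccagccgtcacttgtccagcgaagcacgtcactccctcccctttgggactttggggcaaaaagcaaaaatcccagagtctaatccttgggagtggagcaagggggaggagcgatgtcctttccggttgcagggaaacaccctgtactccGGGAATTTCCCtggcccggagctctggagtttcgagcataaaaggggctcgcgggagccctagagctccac
Cxcl2, chr5:90903649-90903898, plus strand: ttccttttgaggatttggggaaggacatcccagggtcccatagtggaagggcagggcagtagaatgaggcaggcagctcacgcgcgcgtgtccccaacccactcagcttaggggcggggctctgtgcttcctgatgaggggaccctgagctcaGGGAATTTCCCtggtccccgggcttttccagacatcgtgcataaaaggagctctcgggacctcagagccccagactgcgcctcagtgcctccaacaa
Cxcl10, chr5:92348890-92349139, minus strand: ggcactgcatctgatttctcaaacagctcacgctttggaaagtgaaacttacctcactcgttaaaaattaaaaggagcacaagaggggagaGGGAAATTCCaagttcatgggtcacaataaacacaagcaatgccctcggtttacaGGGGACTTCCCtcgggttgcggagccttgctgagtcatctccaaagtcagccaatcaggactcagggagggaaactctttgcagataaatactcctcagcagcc
In Cxcl1 the match begins 71 bases before the start, and in Cxcl2 it begins 97 bases before it, with the same letters, GGGAATTTCC. The minus strand of both holds a match shifted by 1 base, so that the capitals run over both. Cxcl10 has a match at 159 bases before the start and overlapping matches from 104 bases before it.

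The kappaB consensus was searched in the RefSeq windows from 250 bases before to 50 bases after the start. RefSeq windows were found for 39 of the 54 members, and 11 of these (28.2%) held a match: Ccl1, Ccl20, Ccl27a, Ccl9, Ccr1, Ccr3, Ccr6, Cxcl1, Cxcl10, Cxcl2 and Cxcl3. These members have 46 windows, of which 23.9% held a match, beside 8.46% of all 32851 windows. The forkhead letters TGTTTAC or TGTTTGC, which FOXA factors and many other forkhead factors can bind, were in 8.48% of all windows and in 1 member, Cxcr4, from 116 bases before its start. Of the members with a kappaB match that had enough counts to be tested, Cxcl1 was lower and Cxcl2 higher at an unadjusted p under 0.05. These matches describe letters in a short window, and binding was not measured.

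The ligands of Cxcr3 that interferon gamma induces and that draw T cells had overlapping groups. Cxcl9 was at 5.37, 5.65 and 10.4 CPM in FOXA2f/f libraries 1, 2 and 4, and at 6.69, 9.30 and 9.67 CPM in FOXA2H-KO. Cxcl10 was at 1.68, 2.30 and 2.42 CPM in FOXA2f/f and at 1.43, 1.68 and 2.03 CPM in FOXA2H-KO. Their log2 fold changes were 0.26 ± 0.30 and -0.31 ± 0.30 (SE), both with an adjusted p of 0.983 by edgeR. Cxcl11 was at 2.41, 1.10 and 0.636 CPM in FOXA2f/f and at 1.14, 1.00 and 1.76 CPM in FOXA2H-KO. Its log2 fold change was -0.08 ± 0.52 (SE), and it turned positive with library size alone, at 0.07, and without FOXA2f/f library 1, at 0.62. GENCODE annotates Cxcl11 as a polymorphic pseudogene, and 41.7% of its exonic bases overlap a gene on the opposite strand, so that without strand information its counts are uncertain. Cxcr3 itself was between 0.164 and 1.08 CPM, with a log2 fold change of 0.26 ± 0.64 (SE).

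Ccl2, the main attractant of Ccr2-positive monocytes, was at 1.59, 0.713 and 1.72 CPM in FOXA2f/f libraries 1, 2 and 4, and at 2.02, 1.56 and 3.93 CPM in FOXA2H-KO. FOXA2H-KO library 4 was highest, and FOXA2H-KO library 2 lay within the FOXA2f/f range. The log2 fold change was 0.88 ± 0.47 (SE), with an adjusted p of 0.952 by edgeR, and 0.41 without FOXA2H-KO library 4.

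Of the 15 immune-made ligands, 8 were tested and 7 of these were fitted as higher in FOXA2H-KO, with a median log2 fold change of 0.23. With 1 library left out this median was between 0.06, without FOXA2f/f library 1, and 1.17, without FOXA2f/f library 4. Ccl9, a ligand of Ccr1 usually ascribed to macrophages and other myeloid cells, had the most counts of the class. It was at 143, 110.4 and 90.0 CPM in FOXA2f/f libraries 1, 2 and 4, and at 91.7, 92.9 and 116 CPM in FOXA2H-KO, a range of 1.59-fold over the 6 libraries. Its log2 fold change was -0.19 ± 0.20 (SE), with an adjusted p of 0.983 by edgeR. Over the same libraries the summed hepatocyte markers had a range of 1.41-fold and the summed macrophage markers of 4.57-fold. The cell source of the Ccl9 reads was not tested.

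Ccl6, the neighbour of Ccl9 on chromosome 11 and also a ligand of Ccr1, varied more. It was at 26.1, 13.1 and 52.1 CPM in FOXA2f/f libraries 1, 2 and 4, and at 52.6, 44.1 and 31.2 CPM in FOXA2H-KO, a range of 4.03-fold. The lowest libraries were FOXA2f/f 2 and 1, and FOXA2f/f library 4 was level with the highest FOXA2H-KO library. On the log2 scale the fold change was 0.48 ± 0.45 (SE), with an adjusted p of 0.983 by edgeR. The log2 fold change was 0.12 without FOXA2f/f library 2 and 1.12 without FOXA2f/f library 4. The ratio of Ccl6 to Ccl9 ran from 0.118 in FOXA2f/f library 2 to 0.579 in FOXA2f/f library 4, and its values in FOXA2H-KO, between 0.268 and 0.573, were within that range.

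Ccl24, an eotaxin that draws eosinophils through Ccr3, was at 1.16, 1.10 and 1.72 CPM in FOXA2f/f libraries 1, 2 and 4, and at 3.09, 3.33 and 1.53 CPM in FOXA2H-KO. FOXA2H-KO libraries 1 and 2 were above all others, while FOXA2H-KO library 4 lay below FOXA2f/f library 4. The log2 fold change was 0.99 ± 0.38 (SE), with an unadjusted p of 0.0337 and an adjusted p of 0.918 in edgeR's quasi-likelihood test. The exact permutation p was 0.2.

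Ccl3, a macrophage inflammatory protein that acts on Ccr1, was at 0.601, 0.768 and 2.51 CPM in FOXA2f/f libraries 1, 2 and 4, and at 2.68, 1.76 and 0.416 CPM in FOXA2H-KO. Both groups spanned nearly the same range, and the fitted log2 fold change was 0.30 ± 0.74 (SE). It turned to -0.26 without FOXA2H-KO library 1 and was 1.26 without FOXA2f/f library 4. The other tested members of the class, Ccl4, Ccl5 and Ccl7, had means below 1 CPM and log2 fold changes of 0.16 ± 0.77, 0.14 ± 0.47 and 0.07 ± 0.54 (SE).

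Of the 16 stromal and epithelial ligands, 6 were tested, of which 2 were fitted as higher and 4 as lower in FOXA2H-KO, with a median log2 fold change of -0.35. With DESeq2, which tests more of the low genes, the median over the class was 0.19. Cxcl14, a ligand of many epithelia, was at 16.2, 8.06 and 15.4 CPM in FOXA2f/f libraries 1, 2 and 4, and at 6.77, 7.22 and 10.5 CPM in FOXA2H-KO. FOXA2f/f libraries 1 and 4 were above every FOXA2H-KO library, and FOXA2f/f library 2 lay among them. On the log2 scale the fold change was -0.70 ± 0.30 (SE), with an unadjusted p of 0.0501 and an adjusted p of 0.941 by edgeR.

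Cxcl13, the B cell attractant that binds Cxcr5, was at 11.0, 2.41 and 23.0 CPM in FOXA2f/f libraries 1, 2 and 4, and at 5.19, 5.57 and 2.91 CPM in FOXA2H-KO. FOXA2f/f held both the highest value and the lowest, 9.52-fold apart. The log2 fold change of -1.42 ± 0.68 (SE) had an adjusted p of 0.941 by edgeR and was -0.56 without FOXA2f/f library 4. B cell markers summed to between 1.21 and 5.34 CPM over 6 genes in FOXA2f/f and to between 3.10 and 7.17 CPM in FOXA2H-KO, and Cxcr5 was between 0.384 and 0.572 CPM, with a log2 fold change of 0.06 ± 0.39 (SE).

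Cxcl16, a membrane-bound ligand that keeps Cxcr6-positive lymphocytes in the sinusoids, was at 13.8, 7.02 and 28.4 CPM in FOXA2f/f libraries 1, 2 and 4, and at 22.9, 18.1 and 15.5 CPM in FOXA2H-KO. Its log2 fold change was 0.19 ± 0.44 (SE), and it was -0.17 without FOXA2f/f library 2 and 0.85 without FOXA2f/f library 4. Of its exonic bases, 18.27% overlap a gene on the other strand. Cxcr6 was between 0.11 and 0.736 CPM, with a log2 fold change of 0.60 ± 0.64 (SE).

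Ccl25, which guides lymphocytes to the gut through Ccr9, was at 2.41, 5.21 and 3.31 CPM in FOXA2f/f libraries 1, 2 and 4, and at 2.32, 2.05 and 2.54 CPM in FOXA2H-KO. Here FOXA2f/f library 2 was the highest of all. The log2 fold change was -0.65 ± 0.33 (SE), with an adjusted p of 0.944 by edgeR. Ccl27a, a skin-homing ligand, was the steadiest member described, at 2.23, 1.97 and 2.07 CPM in FOXA2f/f and 2.21, 1.92 and 1.94 CPM in FOXA2H-KO, with a log2 fold change of -0.05 ± 0.25 (SE) that was 0.07 with library size alone. Its windows of 50 bases were shared with other genes, Ccl27b among them, for 45.0%, so that its counts are uncertain. Cxcl5, an epithelial attractant of neutrophils, was between 0.254 and 1.73 CPM, with a log2 fold change of 0.51 ± 0.78 (SE).

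Of the 17 receptors, 10 were tested and 9 of these were fitted as higher in FOXA2H-KO, with a median log2 fold change of 0.39, which was 0.06 without FOXA2f/f library 2 and 1.06 without FOXA2f/f library 4. Ccr2, the receptor that brings monocytes from blood into injured liver, was at 13.1, 6.69 and 11.7 CPM in FOXA2f/f libraries 1, 2 and 4, and at 20.7, 18.2 and 19.6 CPM in FOXA2H-KO. All 3 FOXA2H-KO libraries were above all 3 FOXA2f/f libraries, 19.5 ± 1.23 beside 10.5 ± 3.35 CPM (SD, n = 3). On the log2 scale the fold change was 0.89 ± 0.24 (SE), with an unadjusted p of 0.00702 and an adjusted p of 0.689 in edgeR's quasi-likelihood test. Of the windows of 50 bases of Ccr2, 1.91% were shared with other genes. The exact permutation p was 0.1, the smallest possible, and over all settings tried the log2 fold change was between 0.52 and 1.09.

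Ccr1, the receptor of Ccl3, Ccl6 and Ccl9 on myeloid cells, was at 1.93, 0.658 and 3.50 CPM in FOXA2f/f libraries 1, 2 and 4, and at 4.38, 2.49 and 2.87 CPM in FOXA2H-KO, with a log2 fold change of 0.65 ± 0.53 (SE) that was 0.25 without FOXA2f/f library 2 and 1.30 without FOXA2f/f library 4. Cxcr4, the receptor of Cxcl12 on most leukocytes, was at 4.17, 2.47 and 9.12 CPM in FOXA2f/f and at 8.68, 5.41 and 5.27 CPM in FOXA2H-KO. Its log2 fold change was 0.28 ± 0.46 (SE), and it was -0.04 without FOXA2f/f library 2 and 0.95 without FOXA2f/f library 4. In both, FOXA2f/f library 2 was lowest and the groups overlapped.

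Cxcr2, the neutrophil receptor of Cxcl1 and Cxcl2, was at 1.25, 0.439 and 2.57 CPM in FOXA2f/f libraries 1, 2 and 4, and at 1.77, 2.05 and 1.43 CPM in FOXA2H-KO. The highest library was FOXA2f/f 4, not FOXA2f/f 1, where Cxcl1 and the summed neutrophil markers were highest. The log2 fold change was 0.27 ± 0.56 (SE), and it was -0.14 without FOXA2f/f library 2 and 1.02 without FOXA2f/f library 4.

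Ccr3, the receptor of eosinophils, was the only receptor fitted as lower, and a single library decided this. It was at 1.03, 0.877 and 9.63 CPM in FOXA2f/f libraries 1, 2 and 4, and at 1.14, 1.76 and 0.601 CPM in FOXA2H-KO. FOXA2f/f library 4 had 303 counts and the other libraries between 13 and 44. On the log2 scale the fold change was -1.73 ± 0.93 (SE), with an adjusted p of 0.952 by edgeR, and 0.29 without that library. Xcr1, which marks cross-presenting dendritic cells, was between 0.11 and 0.54 CPM, with a log2 fold change of 0.49 ± 0.66 (SE).

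**Figure D3:**
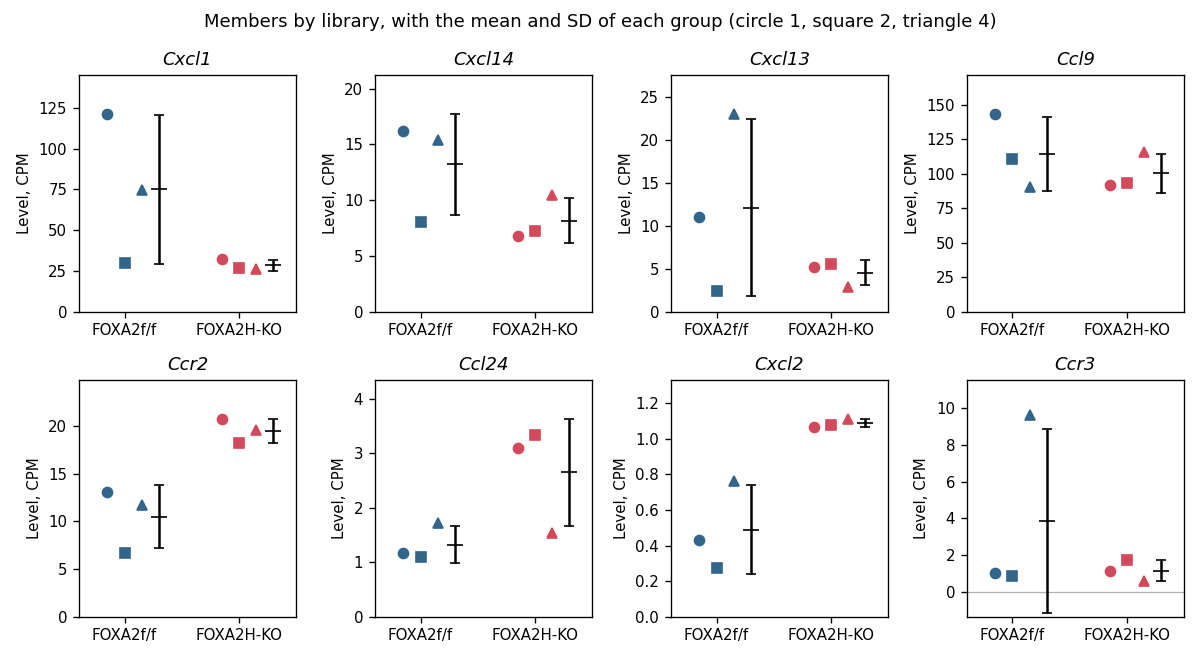
Level of 8 members in CPM in each library, with the mean and SD of the 3 libraries of each group beside the points; a light line marks 0 where the SD reaches below it. FOXA2H-KO lies above FOXA2f/f without overlap for Ccr2 and Cxcl2, FOXA2f/f library 2 lies among the FOXA2H-KO libraries or below them for Cxcl1, Cxcl14 and Cxcl13, and the high mean of Ccr3 in FOXA2f/f comes from library 4, at 9.63 CPM.

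Several members varied between libraries with the macrophage markers, so their levels were also set against the summed macrophage markers of the same library. This scale was chosen after the values were seen and carries no test. Per 1000 CPM of macrophage markers, Ccl6 was at 18.4, 19.3 and 16.8 CPM in FOXA2f/f libraries 1, 2 and 4, and at 22.0, 20.6 and 20.8 CPM in FOXA2H-KO. Its range over the libraries was 1.31-fold on this scale and 4.03-fold in CPM. Cxcl16 had a range of 1.23-fold and Cxcr4 of 1.44-fold on the same scale, in both with overlapping groups.

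Ccr2 per 1000 CPM of macrophage markers was at 9.21, 9.89 and 3.77 CPM in FOXA2f/f and 8.67, 8.51 and 13.0 CPM in FOXA2H-KO, so that its groups, which did not overlap in CPM, overlapped. Ccl9 spread over 5.61-fold on this scale, from 29.1 CPM in FOXA2f/f library 4 to 163 CPM in FOXA2f/f library 2, against 1.59-fold in CPM. Cxcl12 was between 109 and 227 CPM. Cxcl1 was at 24.2 CPM or more in FOXA2f/f and at 17.3 CPM or less in FOXA2H-KO, and Cxcl2 was at 0.405 CPM or less in FOXA2f/f and at 0.447 CPM or more in FOXA2H-KO. The macrophage list itself had 11 markers fitted as higher and 3 as lower, 0 of 14 with an unadjusted p under 0.05 by edgeR or called. It had a median log2 fold change of 0.32 and a range of its sum of 4.57-fold. The 3 lower were Ly6c2, Marco and Timd4, at -1.27 ± 0.66, -0.18 ± 0.75 and -0.03 ± 0.51 (SE) on the log2 scale. Cd5l had the highest mean of the list, 429 CPM, and Ly6c2 had 1.48 CPM, so the sum hardly reflects Ly6c2. The part of macrophage content in the members' differences was not tested.

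**Figure D4:**
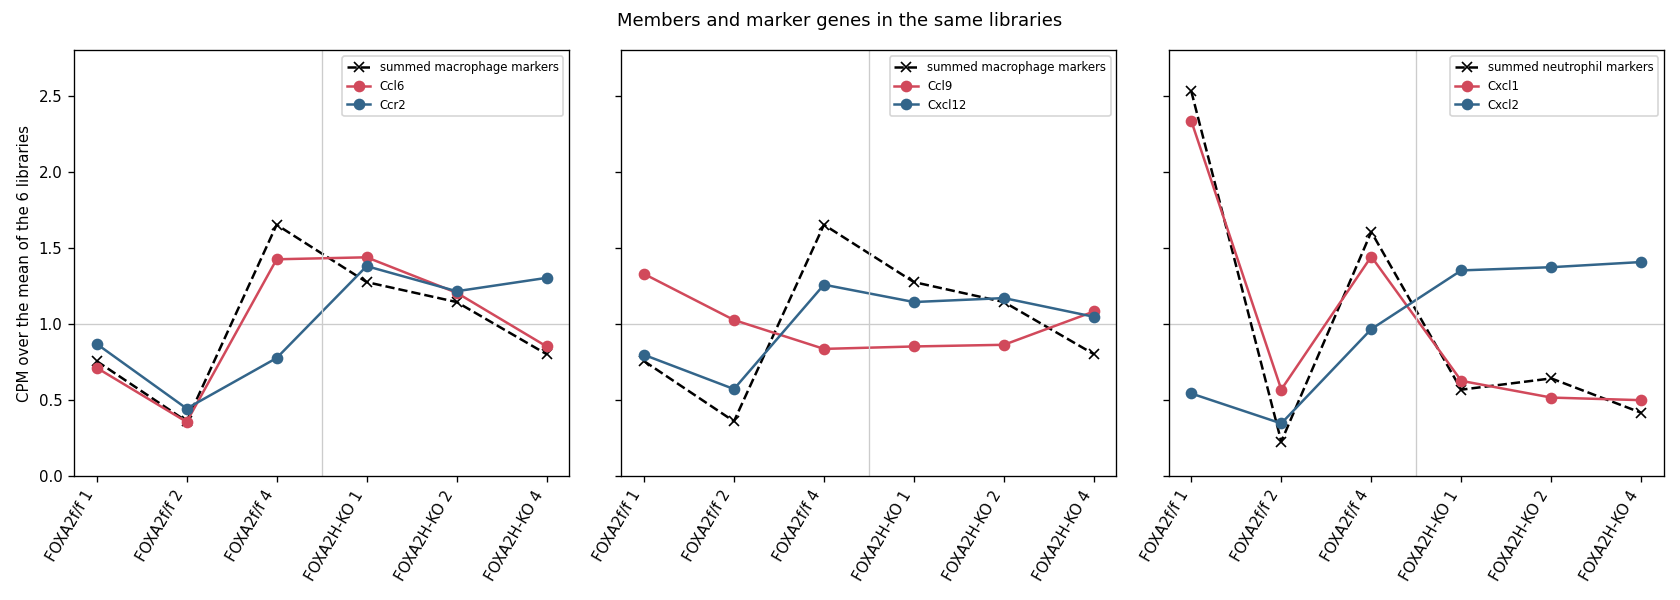
Level of members and of summed marker genes in each library, each as CPM over its mean in the 6 libraries, with a grey line at 1 and a vertical line between the groups. Ccl6 runs close to the macrophage markers from library to library, and Ccl9 and Cxcl12 vary less than these markers. Cxcl1 and the summed neutrophil markers are both highest in FOXA2f/f libraries 1 and 4, where Cxcl2 is below every FOXA2H-KO library.

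Markers of T and NK cells and of dendritic cells, which also carry chemokine receptors, summed lower than those of macrophages in every library. T and NK cell markers summed to between 0.658 and 5.40 CPM over 12 genes, with 3 tested and 0 of these with an unadjusted p under 0.05 by edgeR. Dendritic cell markers summed to between 9.87 and 47.4 CPM over 7 genes. All 7, of which Xcr1 is also a member, were fitted as higher in FOXA2H-KO, with a median log2 fold change of 0.49, and 1 of them, Siglech, had an unadjusted p under 0.05 by edgeR. Endothelial markers were between 267 and 947 CPM and stellate cell markers between 1131 and 2957 CPM, with overlapping groups. The 7 cholangiocyte markers summed to 369, 175 and 232 CPM in FOXA2f/f libraries 1, 2 and 4, and to 712, 253 and 590.3 CPM in FOXA2H-KO. All 6 tested were fitted as higher, and 2, Spp1 and Krt7, had an unadjusted p under 0.05 by edgeR. Over all genes tested, 1.98% were higher at that p. Among the dendritic and cholangiocyte markers, Flt3, Siglech, Krt19 and Krt7 were higher in FOXA2H-KO without overlap, as were 4.54% of all genes tested.

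Ligands were set beside their receptors in 33 known pairs, of which 19 had both genes tested. The fitted changes had the same sign in 13 pairs and opposite signs in 6. Pairs share members, so they are not independent. Every tested receptor except Ccr3 was fitted as higher, so outside the pair with Ccr3 these counts only repeat the sign of the ligand. They do not show that ligands and receptors changed together. Ccl2 and Ccr2 had nearly the same log2 fold change, 0.88 and 0.89. Ccl24 and Ccr3 stood at 0.99 and -1.73, and Cxcl1 and Cxcr2 at -1.40 and 0.27. Cxcl13 and Cxcr5 stood at -1.42 and 0.06.

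The other 24 members had too few counts to be tested, and 21 of these had at least 1 count in some library. The immune-made ones were Ccl1, Ccl8, Ccl12, Ccl17, Ccl22, Cxcl3 and Xcl1, the stromal and epithelial ones Ccl11, Ccl19, Ccl20, Ccl21a, Ccl21b, Ccl26, Ccl27b, Ccl28, Cxcl15 and Cxcl17, and the receptors Ccr4, Ccr6, Ccr7, Ccr8, Ccr9, Ccr10 and Cxcr1. The highest count was 17, of Ccl8, a monocyte attractant, in FOXA2f/f library 4, with between 0 and 5 counts in the other libraries. Ccr10 reached 15 counts and Ccr9 13. Ccr7, which guides dendritic and T cells to lymph nodes, had between 0 and 8 counts, and its ligand Ccl19 between 1 and 12. Ccl26, Ccl27b and Cxcl15 had 0 counts in every library, which allows up to 3 counts, or between 0.0952 and 0.164 CPM, in each. This limit covers counting error only. Transcripts of Ccl21b and Ccl27b share nearly all of their windows of 50 bases with other genes.

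Genes around the chemokine system were given from lists. Of 11 atypical receptors and chemokine genes that the naming rule misses, 10 were tested, 6 fitted as higher and 4 as lower, and 0 had an unadjusted p under 0.05 by edgeR. Their median log2 fold change was 0.07. Cx3cr1, the fractalkine receptor of monocytes and macrophages, was at 5.76, 2.14 and 11.7 CPM in FOXA2f/f libraries 1, 2 and 4, and at 12.2, 8.94 and 10.2 CPM in FOXA2H-KO, with a log2 fold change of 0.66 ± 0.51 (SE). Pf4, a platelet chemokine, had a log2 fold change of 0.52 ± 0.45 (SE) and Ackr4, a scavenging receptor of homeostatic ligands, of 0.46 ± 0.42 (SE).

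Of 13 cytokines and receptors that induce chemokines, 9 were tested, of which 6 were fitted as higher and 3 as lower, with a median log2 fold change of 0.16. Il1r1, the signalling receptor of interleukin-1, was at 113, 51.8 and 121 CPM in FOXA2f/f libraries 1, 2 and 4, and at 126, 189 and 226 CPM in FOXA2H-KO, without overlap. Its log2 fold change was 0.92 ± 0.34 (SE), with an unadjusted p of 0.0294 and an adjusted p of 0.895 by edgeR. Tnfrsf1a, the widely expressed receptor of tumour necrosis factor, was at 117, 98.1 and 102 CPM in FOXA2f/f and at 84.2, 93.2 and 76.6 CPM in FOXA2H-KO, also without overlap. Its log2 fold change was -0.32 ± 0.14 (SE), with an unadjusted p of 0.0487 and an adjusted p of 0.941 by edgeR. Il6ra, the ligand-binding chain of the interleukin-6 receptor, had a log2 fold change of 0.43 ± 0.23 (SE).

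All 17 genes listed for the NF-kappaB pathway were tested, 10 fitted as higher and 7 as lower, with a median log2 fold change of 0.02 and 0 with an unadjusted p under 0.05 by edgeR. The 3 with the smallest p were Tnfaip3, which ends NF-kappaB signalling, at 0.50 ± 0.24 (SE), the subunit Rel at 0.43 ± 0.22 (SE) and the inhibitor Nfkbia at 0.34 ± 0.22 (SE) on the log2 scale. Tnfaip3 and Rel were higher in FOXA2H-KO without overlap, and the subunit Rela was lower without overlap. All 11 genes of the interferon pathway that leads to the Cxcr3 ligands were tested, 6 fitted as higher and 5 as lower, with a median log2 fold change of 0.08 and 0 with an unadjusted p under 0.05 by edgeR. Its 3 genes with the smallest p were Gbp2, a guanylate-binding protein, at 0.55 ± 0.32 (SE), the kinase Jak2 at 0.19 ± 0.12 (SE) and the interferon regulatory factor Irf7 at -0.19 ± 0.23 (SE). Jak2 was higher in FOXA2H-KO without overlap. For all these lists the background is the same: 4.54% of all genes tested were higher and 5.96% lower without overlap.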

How the data were processed

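Poly-A RNA of primary hepatocytes was sequenced as paired ends (TruSeq, Illumina HiSeq). Per sample, the authors deposited a count and an FPKM value for 34745 Ensembl genes, 34267 of them with a symbol. The deposited counts are whole numbers without normalization. The FPKM values deposited by the authors follow from the counts, the total count and 1 length per gene. The submitters' processing notes name CASAVA 1.8, TopHat2 2.1.0, HTSeq, edgeR and mm10; the annotation and the strand setting are not given in the sources used here. Columns of other samples numbered 0.

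Counts were tested in R 4.3.3 with edgeR 4.0.16 (TMM, filterByExpr, quasi-likelihood test, no replicate block) over all 14417 genes that passed the filter, with Benjamini-Hochberg adjustment. A gene was called at an adjusted p under 0.05 and a fold change of at least 2. The biological coefficient of variation was 25.3%. CPM are counts over the TMM-adjusted library size. Scripts were tested on simulated data. Squared differences between replicates, summed over genes, were at least 35.9 times those of sampling noise (chi-square per degree of freedom). For single members, an exact permutation test (two-sided) of the 6 values was added. Positions and overlaps are from GENCODE M21 (GRCm38), and promoters from RefSeq (GRCm38.p6).

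Members with a mean of at least 1 CPM, and other tested members with an unadjusted p under 0.05, were described library by library, with the receptors of such ligands, and of each related list the 3 genes with the smallest p. Genes counted 5 or fewer at a time are named too. A part of what this rule selects is left unreported. The members and lists were chosen with earlier results of these data known. The alternatives were DESeq2 1.42.0, library size alone, upper quartile scaling, edgeR's exact test, 2 other filters, limma 3.58.1 on log2(FPKM + 1) and log2(FPKM + 0.1), a replicate block, and leaving out each library. A table of the whole series repeats the values of the sample files and was not used.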

Additional observations from a re-analysis of the deposited data

How the results depend on the processing

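Under the 15 alternatives tried, 0 members were called. The share of all genes called is given here only for the reported fit, so these zeros have no background to be read against. Of the 22 members selected for description, 14 kept their direction in every alternative that gave them a value; low genes have none under some filters. Members lower at an unadjusted p under 0.05 numbered 1 as reported, 4 with DESeq2, 3 with edgeR's exact test and 4 without the filter on low counts. They numbered 0 with limma on either log2(FPKM + 1) or log2(FPKM + 0.1) and 2 with the replicate block. With 1 library left out they numbered 1 to 4, and those that were higher 1 to 10. For the alternatives that keep all 6 libraries, the share of all genes at that p is not given here. DESeq2 and the fit without the filter also test more members. The counts under those alternatives therefore cannot be read as a result about the members. Members higher without overlap numbered 1 with at least 10 counts in every library and 1 on log2(FPKM + 1), where Cxcl2 was too low to be included. With 1 library left out they numbered 2 to 16, and those lower without overlap 0 to 3. The median of immune-made ligands was 0.06 to 1.17 and that of receptors 0.06 to 1.06 with 1 library left out. That of stromal and epithelial ligands was 0.19 with DESeq2 and without the filter, 0.06 on log2(FPKM + 0.1) and -0.64 with at least 10 counts in every library, where the first 2 settings test more genes of the class and the last fewer, while on the FPKM scale the cause was not tested; it was -0.58 to -0.17 with 1 library left out. Foxa2 no longer passed with library size alone (-3.74), on log2(FPKM + 1) (-1.95) and log2(FPKM + 0.1) (-3.38) and with the replicate block (-3.88), and with 1 library left out it was -4.17 to -3.63 and passed only without FOXA2f/f library 2; the cause was not tested.

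With library size alone and on log2(FPKM + 0.1), Ccl27a turned to 0.07 and 0.06, and Cxcl11 to 0.07 and 0.12, beside a median of all genes that moved from -0.012 to 0.104 and 0.114. Cxcl11 was 0.06 with the replicate block. With 1 library left out, Ccl27a was -0.11 to 0.02, Ccl3 -0.26 to 1.26, with -0.03 without FOXA2f/f library 1, Ccl9 -0.34 to 0.02, Ccr3 -2.19 to 0.29, Cxcl11 -0.45 to 0.62, with 0.00 and 0.07 without FOXA2H-KO libraries 1 and 2, Cxcl16 -0.17 to 0.85, Cxcr2 -0.14 to 1.02 and Cxcr4 -0.04 to 0.95. Deviations of same-numbered libraries from their group means correlated at -0.07, 0.03 and -0.23 across genes for numbers 1, 2 and 4. Those of differently numbered libraries correlated at -0.19 to 0.25. The replicate numbers thus showed no sign of a pairing, but with 3 libraries per group these values cannot settle whether the samples were paired.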
